A study of Homo sapiens with 18 samples.

Results

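TFIIH is the general transcription factor that opens promoter DNA for RNA polymerase II, and its XPB subunit is the protein that triptolide binds to stop transcription. The mRNAs of its subunits were followed here in cells given triptolide, with and without etoposide beforehand. The 10 subunit genes were taken by symbol (ERCC3, ERCC2, GTF2H1, GTF2H2, GTF2H3, GTF2H4 and GTF2H5 of the core, and CDK7, CCNH and MNAT1 of the kinase module), and each matched 1 of the 58051 gene identifiers in the count files. All 10 had counts in every one of the 6 groups, but only 9 passed the filter on low counts.

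The cells were hTERT RPE-1, which are telomerase-immortalised human cells of the retinal pigment epithelium. In all 6 groups they had been grown in 10% serum, starved for 48 h in 0.1% serum, and are labelled G0/G1. The etoposide groups received 50 µM etoposide, a poison of topoisomerase II, for 30 min, and the other groups are named DMSO in the sample titles. The protocol gives 10 µM triptolide, and each arm was sampled at the time points 0, 20 and 40, whose unit the labels do not state. They also do not say whether triptolide was present at time point 0. The groups are therefore etoposide at 0, 20 and 40 and DMSO at 0, 20 and 40, each with 3 replicates that the labels call independent and number 1 to 3.

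In the complex, XPB and XPD (encoded by ERCC3 and ERCC2) are DNA translocase and helicase, p62, p44, p34, p52 and p8 (GTF2H1, GTF2H2, GTF2H3, GTF2H4 and GTF2H5) form the scaffold around them, and CDK7 with cyclin H and MAT1 (CCNH and MNAT1) phosphorylates the tail of RNA polymerase II. The same core opens DNA around lesions in nucleotide excision repair. Triptolide forms a covalent bond with a cysteine of XPB, blocks its ATPase activity and so stops initiation, after which mRNA levels follow mRNA decay.

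The codon of that cysteine is shown because it is the site through which the drug of this experiment acts. It is codon 342 of 782 in the GENCODE 29 coding sequence of ERCC3, the one cysteine codon directly before the glycine-rich codons of the ATP-binding loop. It is in capitals below with 30 bases on either side, 5′ to 3′ on the minus strand of GRCh38. The stretch is spliced and its ends lie at chr2:127286989-127288693.
ERCC3 around codon 342: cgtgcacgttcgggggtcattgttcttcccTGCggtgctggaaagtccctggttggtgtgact

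A second pair of sequences shows how close one core subunit gene is to its copy. GTF2H2 has a near-identical protein-coding copy, GTF2H2C, also on chromosome 5. Their coding sequences are both 1188 bases long and differ at 4 bases, which are A397G, A453G, G706C and G912A (the base of GTF2H2 first, positions counted from 1 at the start codon). The first of the 4 differences is capitalised below, at chr5:71055405-71055445 on the minus strand for GTF2H2 and at chr5:69572457-69572497 on the plus strand for GTF2H2C, in GRCh38.
GTF2H2: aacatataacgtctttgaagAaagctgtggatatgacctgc
GTF2H2C: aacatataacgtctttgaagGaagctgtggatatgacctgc
Of all stretches of 75 bases in the coding sequence of GTF2H2, 74.8% also occur in that of GTF2H2C and 86.5% in GTF2H2C or the pseudogene GTF2H2B (coding bases only, with the read length not known). The share was 82.4% for GTF2H2C with stretches of 50 bases and 67.3% with stretches of 100 bases.

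Total counts were 7957691 to 11580219 per library (median 10114787.5). Levels are given below in CPM, counts per 1000000 counts of a library, and 3 counts, taken as the floor of detection, were 0.259 to 0.377 CPM. The CPM values of the subunits are after TMM scaling, with factors of 0.978 to 1.02. The floor, the marker levels, the levels of overlapping and neighbouring genes, and the percentages of replicate 3 against replicates 1 and 2 are without TMM scaling. Of the 13 markers of retinal pigment epithelium listed, 5 reached a mean of 1 CPM (BEST1, MITF, OTX2, PMEL and SERPINF1) and DCT and TTR had 0 counts. Their summed level was 70.6 to 105 CPM in etoposide libraries and 70.4 to 2540 CPM in DMSO libraries, the highest being replicate 2 of time point 0, where BEST1 stood apart. The mean of BEST1 includes that library, and its level in the other libraries is not given here. Of 7 blood markers none reached 1 CPM, of 4 endothelial markers PECAM1 alone did, of 9 fibroblast markers 6 did (684 to 1010 CPM summed with etoposide, 789 to 948 with DMSO), and of 7 epithelial markers KRT8 and KRT18 did (911 to 1820 CPM summed with etoposide, 993 to 2050 with DMSO), with KRT5 and CDH1 at 0. Bulk RNA of this kind cannot tell fewer cells with a transcript from less transcript per cell, and levels are relative to the rest of the RNA in each library.

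No change of a subunit mRNA was detected at any time point in either arm. None of the 9 tested members was called at an adjusted p under 0.05 by edgeR's quasi-likelihood test with Benjamini-Hochberg adjustment over 14186 genes, in any of 10 comparisons, and none had an unadjusted p under 0.05. Of all genes tested, 0% to 0.916% were called, depending on the comparison. DESeq2 and limma-voom called 0 members as well, with 0 at an unadjusted p under 0.05. Short-lived mRNAs of the same libraries did fall. They were listed with earlier results of these data known, so their fall describes these libraries and is no independent check. The 3 named below had the smallest edgeR p of the list over both arms. Of 15 listed mRNAs of early-response and other inducible genes, all 15 had values below 0 for 40 against 0 over both arms and 10 were called lower, with a list median of −1.73 on the log2 scale, against 0.033 for the 9 subunits and 0.0116 for all genes tested. With the replicate block 14 of the 15 were below 0. IER3 of this list lies near GTF2H4 on chromosome 6. It averaged 2.26 CPM in replicates 1 and 2 and 0.053 CPM in replicate 3, below the floor. ADM, the vasodilator peptide adrenomedullin, changed by −2.40 (SE 0.11, edgeR adjusted p = 4.98e-09), SOCS3, a feedback inhibitor of cytokine signalling, by −2.68 (SE 0.15, adjusted p = 3.73e-08), and ID1, an inhibitor of DNA-binding by helix-loop-helix factors, by −1.68 (SE 0.15, adjusted p = 7.82e-06).

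**Figure D1:**
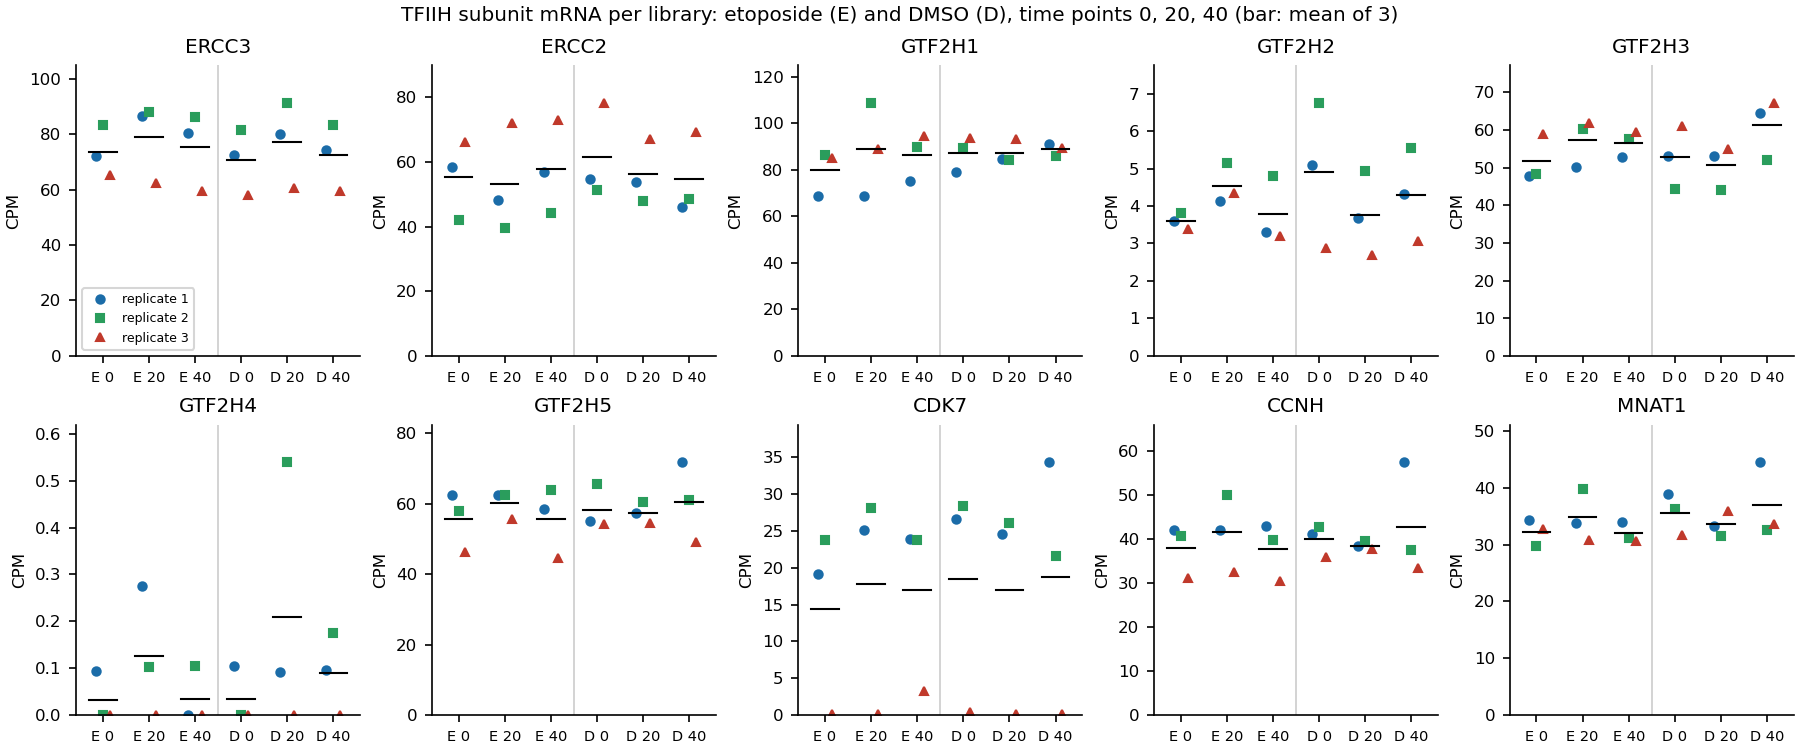
Levels of the 10 subunit mRNAs in CPM (y axis, linear, from 0) in each library, by arm and time point (x axis; E etoposide, D DMSO). Symbols mark the replicate number and bars the mean of 3 libraries. Replicate 3 lies between 0.105 and 3.21 CPM for CDK7 and at 0 for GTF2H4, while the other members have libraries of both arms side by side.

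ERCC3, whose product is the target of triptolide, lies on chromosome 2 at 127257290 to 127294176 on the minus strand (ENSG00000163161). Its level in replicates 1, 2 and 3 was 72.1, 83.2 and 65.4 CPM at time point 0 of the etoposide arm, 86.4, 88.1 and 62.3 CPM at 20, and 80.5, 86.0 and 59.4 CPM at 40. In the DMSO arm it was 72.6, 81.4 and 58.1 CPM at 0, 80.1, 91.2 and 60.4 CPM at 20, and 74.1, 83.4 and 59.4 CPM at 40. The groups overlapped throughout, and replicate 3 was the lowest library in every one of them.

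At time point 40 the ERCC3 mRNA was at 102% of its level at 0 in the etoposide arm (95% interval 76.5% to 137%) and at 102% in the DMSO arm (76.4% to 137%). Over both arms the log2 change was 0.03 (SE 0.14, interval 83.3% to 126%). With the replicate block the intervals were 89.0% to 116% with etoposide, 89.6% to 117% with DMSO and 92.8% to 112% over both arms. The difference between the arms in that change was 0.00 (SE 0.28, or −0.01 with an SE of 0.13 with the block). Etoposide against DMSO gave a log2 difference of 0.06 (SE 0.20) at time point 0, 0.03 (SE 0.20) at 20 and 0.06 (SE 0.20) at 40, none of them larger than the spread between replicates. Within the DMSO arm each replicate had a slightly higher value at 40 than at 0, by 0.03 on the log2 scale in all 3, while in the etoposide arm the differences were 0.16, 0.05 and −0.14 in replicates 1, 2 and 3.

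ERCC2 encodes the helicase XPD, which repair needs in its active form and which also anchors the kinase module. It lies on chromosome 19 at 45349837 to 45370918 (minus strand, ENSG00000104884). Its levels in replicates 1, 2 and 3 were 58.3, 42.0 and 66.0 CPM at 0, 48.1, 39.5 and 72.1 CPM at 20, and 56.9, 44.1 and 72.9 CPM at 40 with etoposide. With DMSO they were 54.6, 51.4 and 78.2 CPM at 0, 53.9, 47.8 and 67.1 CPM at 20, and 46.1, 48.6 and 69.3 CPM at 40. Replicate 3 was the highest library of every group, and the groups overlapped. In the DMSO arm ERCC2 was lower at 40 than at 0 in 3 of 3 replicate numbers, with log2 differences of −0.24, −0.08 and −0.17 in replicates 1, 2 and 3. The fitted difference was −0.17 (SE 0.26), and −0.16 with the replicate block (SE 0.11, edgeR unadjusted p = 0.154, adjusted p = 0.817), which did not pass the test. In the etoposide arm it was 0.06 (SE 0.26), and 0.06 with the block (SE 0.11). Counts of replicate numbers that share a direction are named for some members and comparisons only. The share of all genes tested with 3 of 3 in the same direction is not given here.

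The remaining core subunits were p62, p34 and p8, with p44 and p52 described further on. GTF2H1, whose product p62 docks transcription activators and repair factors, was the most abundant in CPM. It lies on chromosome 11 at 18322295 to 18367044 (ENSG00000110768), and its group means were 80.0 ± 9.79, 88.9 ± 20.0 and 86.7 ± 10.2 CPM at 0, 20 and 40 with etoposide and 87.5 ± 7.51, 87.4 ± 4.97 and 88.9 ± 2.51 CPM with DMSO (SD, n = 3 each). At time point 0 it was lower with etoposide than with DMSO in 3 of 3 replicate numbers, by a log2 difference of −0.13 (SE 0.15, edgeR unadjusted p = 0.404). With the replicate block the difference was −0.13 (SE 0.11, edgeR unadjusted p = 0.258, adjusted p = 0.909). The SD with etoposide at 20 was large because replicate 2 had 109 CPM against 68.8 and 89.1 CPM in replicates 1 and 3.

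GTF2H3 encodes p34, a partner of p44 with a zinc-binding fold, and lies on chromosome 12 at 123633739 to 123662606 (ENSG00000111358). Its levels in replicates 1, 2 and 3 were 47.7, 48.4 and 58.9 CPM at 0, 50.3, 60.3 and 61.9 CPM at 20, and 52.9, 57.7 and 59.5 CPM at 40 with etoposide. With DMSO they were 53.0, 44.5 and 61.0 CPM at 0, 53.0, 44.0 and 54.9 CPM at 20, and 64.5, 52.2 and 67.2 CPM at 40. All 6 same-numbered pairs were higher at 40 than at 0, although the groups overlapped. The log2 change over both arms was 0.17 (SE 0.10, interval 96.7% to 132%), the highest of the 8 tested members other than CDK7, with an unadjusted p of 0.117 (edgeR). With the replicate number as a block it was 0.18 (SE 0.08), at an unadjusted p of 0.0376 and an adjusted p of 0.510, the lowest adjusted p of any member under any setting.

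GTF2H5 encodes p8, the small subunit that stabilises the complex and whose loss causes a form of trichothiodystrophy. It lies on chromosome 6 at 158168350 to 158199344 (ENSG00000272047). It averaged 55.5 ± 8.38, 60.2 ± 3.95 and 55.5 ± 10.0 CPM at 0, 20 and 40 with etoposide, and 58.2 ± 6.42, 57.4 ± 3.0 and 60.6 ± 11.3 CPM with DMSO (SD, n = 3 each). Its log2 change at 40 was 0.00 (SE 0.16) with etoposide and 0.06 (SE 0.16) with DMSO.

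**Figure D2:**
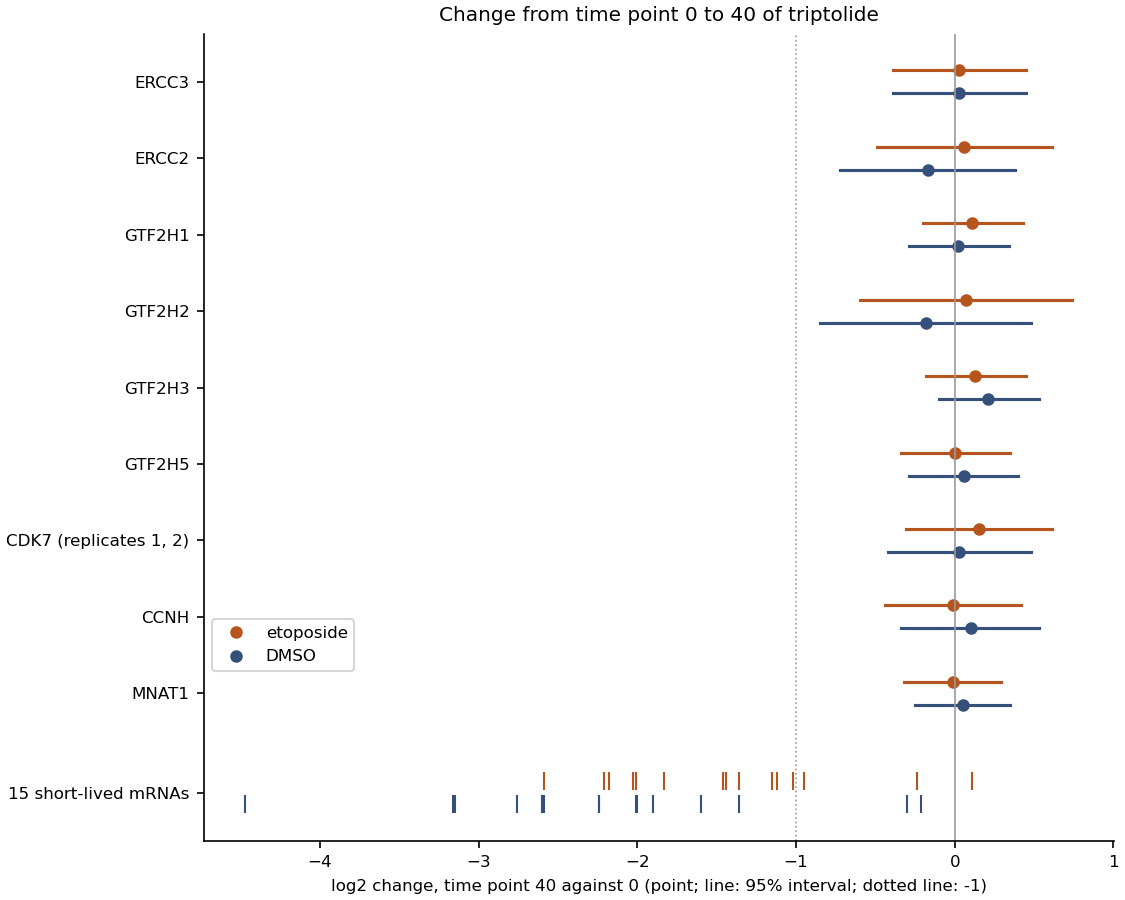
Log2 change at time point 40 against 0 (x axis) for the 9 tested subunits (y axis) in the etoposide arm and the DMSO arm, as edgeR estimates (points) with 95% intervals (lines). CDK7 is drawn from replicates 1 and 2. Tick marks in the lowest row are the changes of 15 short-lived mRNAs. Every interval of a subunit lies to the right of −1, the level at which an mRNA would have fallen to 50% of its start relative to the other mRNAs.

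Among the 8 members other than CDK7, all 8 had a lower 95% bound above 50% of the level at 0, in each arm. These levels are relative to the other mRNAs of each library, so a fall shared by most mRNAs would not show in them. The lowest bounds were those of GTF2H2, at 65.8% with etoposide and 55.5% with DMSO, and the highest were those of GTF2H3, at 88.3% with etoposide and 93.2% with DMSO. Over both arms the bounds were 69.2% for GTF2H2 and 96.7% for GTF2H3. A fall to the levels of ADM, SOCS3 or ID1 at 40, which were 19.0%, 15.6% and 31.3% of their start, lay outside all of these intervals. These 3 had the smallest edgeR p of the 15 listed short-lived mRNAs. Of the same list, ATF3 was at 96.8% (SE of the log2 change 0.83) and FOSB at 83.0% (SE 0.64). A smaller fall, to 80% of the start, lay inside the single-arm intervals of ERCC3, ERCC2, GTF2H2 and CCNH in both arms and of GTF2H5 with etoposide. The replicate block gave narrower intervals, whose lower bounds ran from 73.3% (GTF2H2) to 93.6% (GTF2H3) with etoposide and from 64.1% (GTF2H2) to 98.6% (GTF2H3) with DMSO. With the block a level of 80% stayed inside the intervals of GTF2H2 in both arms and of ERCC2 with DMSO, among these 8 members.

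In the kinase module, CCNH encodes cyclin H, the activating partner of CDK7, on chromosome 5 at 87318416 to 87413019 (minus strand, ENSG00000134480). It averaged 38.0 ± 5.94, 41.6 ± 8.72 and 37.7 ± 6.50 CPM at 0, 20 and 40 with etoposide and 40.1 ± 3.57, 38.6 ± 0.937 and 42.8 ± 12.9 CPM with DMSO (SD, n = 3 each). The log2 change of CCNH at 40 was −0.01 (SE 0.20) with etoposide and 0.10 (SE 0.20) with DMSO. Its exons share 22.3% of their bases with genes of the opposite strand, 12.7% with RASA1 at 75.1 CPM, and the strand setting of the counting is not given in the sources used here. MNAT1 encodes MAT1, which holds the module together, on chromosome 14 at 60734742 to 60969953 (ENSG00000020426). It averaged 32.3 ± 2.27, 34.8 ± 4.62 and 32.0 ± 1.81 CPM with etoposide and 35.6 ± 3.66, 33.6 ± 2.17 and 36.9 ± 6.55 CPM with DMSO (SD, n = 3 each). At time point 40 it was lower with etoposide than with DMSO in 3 of 3 replicate numbers, by a log2 difference of −0.21 (SE 0.14, edgeR unadjusted p = 0.166). With the replicate block the difference was −0.20 (SE 0.13, edgeR unadjusted p = 0.123, adjusted p = 0.996).

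The DMSO library of replicate 1 at time point 40 had the highest CPM of 4 of the 9 tested members, GTF2H5 (71.6 CPM), CDK7 (34.3 CPM), CCNH (57.5 CPM) and MNAT1 (44.4 CPM). This library was picked after the highest library of each member had been looked up. The share of all genes tested with their highest CPM in it is not given here, and no test was made of this library.

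CDK7, the kinase itself, lies on chromosome 5 at 69234795 to 69277430 (ENSG00000134058), and its counts depended on the replicate number far more than on the group. In replicates 1 and 2 it had 203 and 237 counts at 0, 274 and 273 at 20, and 260 and 227 at 40 with etoposide. In the same replicates with DMSO it had 257 and 248 counts at 0, 268 and 290 at 20, and 358 and 246 at 40. Replicate 3 had 2, 1 and 29 counts at 0, 20 and 40 with etoposide and 4, 2 and 1 counts with DMSO. The 6 libraries of replicate 3 thus lay at 0.105 to 3.21 CPM (median 0.182), entirely below the 19.2 to 34.3 CPM (median 24.8) of replicates 1 and 2.

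That difference was −5.51 on the log2 scale between replicate 3 and the other replicates, and 0.768% of the genes tested had a difference at least as large. Near-absence in replicate 3 was also seen in neighbours of CDK7. Among the 17 other protein-coding genes within 3 Mb of CDK7 that had at least 2 CPM in replicates 1 and 2, 7 (41.2%) were under 10% of that level in replicate 3, against 195 of 11288 (1.73%) over all protein-coding genes. Directly upstream, MRPS36 was at 42.2% of the level of replicates 1 and 2, with CENPH at 127%, CCNB1 at 61.0% and SLC30A5 at 137% before it. CDK7 was at 2.76%, followed by CCDC125 at 5.15%, AK6 and TAF9 at 0%, RAD17 at 0.78% and GTF2H2C at 9.51%. Farther on, SMN1 was at 1.23%, GTF2H2 at 71.4%, BDP1 at 0% and MCCC2 at 83.3%. The windows and these neighbours were chosen after their values were seen, and the fitted change between groups of CDK7 is therefore given with and without replicate 3.

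**Figure D3:**
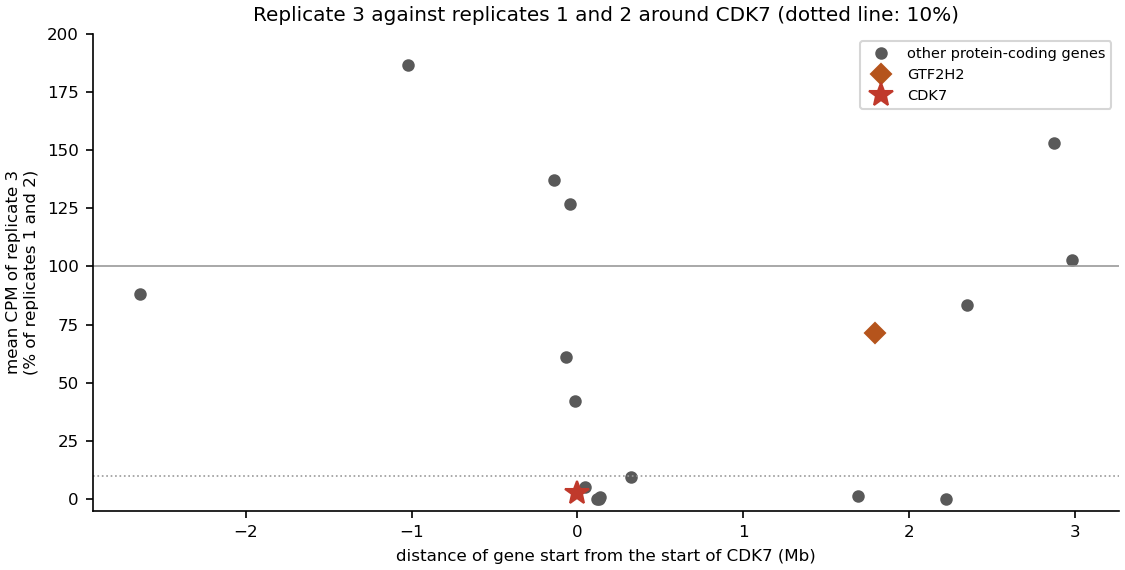
Mean CPM of replicate 3 as a percentage of the mean of replicates 1 and 2 (y axis) for CDK7 and the 17 other protein-coding genes around it (points), against the distance of each gene's start from the start of CDK7 in Mb (x axis). CDK7 lies at 2.76% and several genes beyond it at 10% or less, with GTF2H2 at 71.4% among them.

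With all replicates, the log2 change of CDK7 at 40 over both arms was 0.13 with an SE of 1.28, an interval from 16.0% to 748% of the start, too wide to place the change. From replicates 1 and 2 alone it was 0.09 (SE 0.15, 85.1% to 133%), with 0.15 (SE 0.22) in the etoposide arm and 0.03 (SE 0.21) in the DMSO arm. Etoposide against DMSO, from the same 12 libraries, gave −0.35 (SE 0.22) at time point 0, 0.08 (SE 0.21) at 20 and −0.23 (SE 0.21) at 40, and −0.17 (SE 0.12, 74.3% to 107% of the DMSO level) as the mean over the 3 time points. None of these passed the test (edgeR adjusted p 0.9984 or more).

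GTF2H2, which encodes p44, the regulator of XPD, had few counts. It lies on chromosome 5 at 71032670 to 71067689 (minus strand, ENSG00000145736), and had 27 to 63 counts per library. Its levels in replicates 1, 2 and 3 were 3.59, 3.82 and 3.39 CPM at 0, 4.12, 5.16 and 4.36 CPM at 20, and 3.31, 4.80 and 3.21 CPM at 40 with etoposide. With DMSO they were 5.08, 6.75 and 2.88 CPM at 0, 3.67, 4.94 and 2.71 CPM at 20, and 4.31, 5.54 and 3.06 CPM at 40. At 20 against 0, all 3 replicate numbers were higher with etoposide and all 3 were lower with DMSO, a contrast taken up under the results flagged for a closer look. With etoposide the 3 values at 20 lay above the 3 at 0. The fitted log2 difference was 0.34 (SE 0.32, edgeR unadjusted p = 0.303), or 0.32 with the replicate block (SE 0.23, unadjusted p = 0.183). In this comparison 0% of the genes tested were called, with and without the block. GTF2H2 was the only 1 of the 9 tested members whose groups did not overlap there, against 3.71% of all genes tested. Within the DMSO arm, and between the arms at each time point, the values overlapped. Etoposide against DMSO at time point 0 gave −0.44 (SE 0.32, edgeR unadjusted p = 0.179), the largest in size of the tested members there. Within replicates 1, 2 and 3 the log2 differences were −0.48, −0.79 and 0.22 (prior count of 2), so replicate 3 went the other way. The highest GTF2H2 level of any library, 6.75 CPM, was in DMSO replicate 2 at time point 0, the library where BEST1 stood apart. With the replicate block the fitted difference at time point 0 was −0.39 (SE 0.23, edgeR unadjusted p = 0.102). With the block and without replicate 3 it was −0.65 (SE 0.30, unadjusted p = 0.0453, adjusted p = 0.9999). It shares the libraries of time point 0 with the differences at 20 against 0.

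The copies of GTF2H2 did not follow it across replicates. GTF2H2C had 1 to 12 counts in the libraries of replicate 3 and 24 to 71 in those of replicates 1 and 2, while GTF2H2B had 9 to 44 counts in replicate 3 and 9 to 25 in replicates 1 and 2. GTF2H2 itself had 27 to 40 counts in replicate 3 and 36 to 63 in replicates 1 and 2. How reads matching several places were counted is not given in the sources used here, so the 3 counts may hold one another's reads. The symbols GTF2H2D and GTF2H2C_2 matched no identifier and are not analysed here.

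GTF2H4 encodes p52, the subunit that anchors XPB in the complex and stimulates its ATPase. It lies in the MHC region of chromosome 6 at 30908184 to 30914106 (ENSG00000213780) and had 17 counts in all 18 libraries together, 0 to 6 in a library and 0 in all 6 of replicate 3. These are at or near the floor of detection, so it did not pass the filter and no fold change is given. Of its exon bases, 79.0% lie within exons of VARS2, a valyl-tRNA synthetase gene on the same strand. VARS2 averaged 21.9 CPM in replicates 1 and 2 and 0.146 CPM in replicate 3, and reads that overlap both genes can be assigned to neither by a counter that skips ambiguous reads. Within 1 Mb of GTF2H4, 36 of 40 protein-coding genes (90.0%) were under 10% of the level of replicates 1 and 2 in replicate 3. The part of the overlap and of the low counts of the region in the counts of GTF2H4 was not tested.

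Replicate 3 also stood apart for the 2 large DNA-dependent ATPases. ERCC3 was at 58.1 to 65.4 CPM in the 6 libraries of replicate 3, below the 72.1 to 91.2 CPM of the other 12, a log2 difference of −0.42. ERCC2 went the opposite way, at 66.0 to 78.2 CPM in replicate 3 and 39.5 to 58.3 CPM in the others, a difference of 0.53. With CDK7, 3 of the 9 tested members did not overlap between replicate 3 and the rest, against a background of 18.9% of all genes tested. The remaining 6 overlapped, at log2 differences from −0.46 (GTF2H2) to 0.21 (GTF2H3). The column headers of the 6 libraries of replicate 3 end in BAM and those of the others do not, and what this means for the counting was not tested.

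Levels were also compared per length, as RPKM (reads per kilobase of a gene's merged exons, on the CPM scale). The kinase module and the core members other than GTF2H2 and GTF2H4 had medians of 6.54 to 13.5 RPKM. The median over 18 libraries was 13.5 RPKM for GTF2H3, 12.6 for GTF2H1, 9.15 for ERCC3, 8.66 for MNAT1, 8.41 for ERCC2, 7.68 for GTF2H5 and 6.54 for CCNH. CDK7 was at 9.83 RPKM, or 10.3 in replicates 1 and 2. Their ranges overlapped between neighbours in this order, such as 11.0 to 16.8 RPKM for GTF2H3 and 9.91 to 15.7 for GTF2H1, or 6.90 to 10.8 for ERCC3 and 7.72 to 11.5 for MNAT1. Far below them were GTF2H2 at 0.458 RPKM (0.312 to 0.777) and GTF2H4 at 0.0195 (0 to 0.229). Their counts carry the limits given above, which are sequence shared with copies for GTF2H2 and overlap with VARS2 for GTF2H4.

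The order depended on the length used. Per kilobase of the longest coding transcript, an alternative chosen after seeing the data, GTF2H1 (29.4 RPKM) and ERCC3 (27.7) came first. They were followed by CCNH (16.6), CDK7 (16.3), GTF2H3 (16.2), ERCC2 (13.2), MNAT1 (12.7) and GTF2H5 (7.76), with GTF2H2 (0.915) and GTF2H4 (0.0265) again last.

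**Figure D4:**
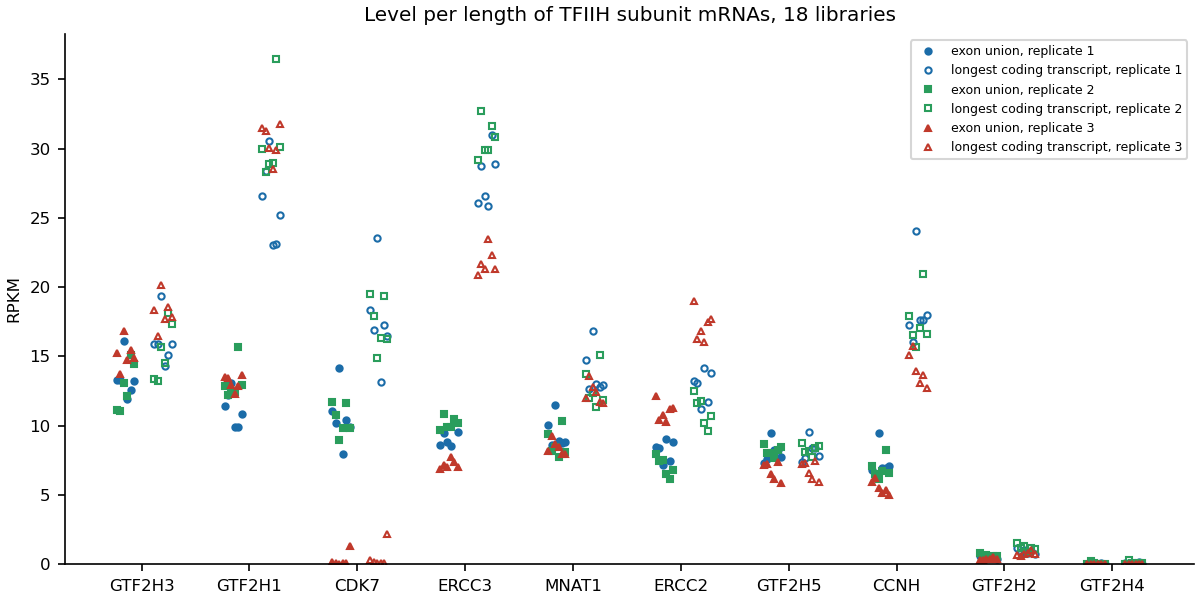
Level per length in RPKM (y axis) of each subunit mRNA (x axis, in the order of the median over exon union length) in 18 libraries. Filled symbols use the merged exons and open symbols the longest coding transcript, and the shape gives the replicate number. GTF2H2 and GTF2H4 lie near 0 on both scales, and CDK7 does so in replicate 3.

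The direction of the subunits' differences varied with the comparison. For etoposide against DMSO, 8 of 9 were below 0 at time point 0 with a median of −0.128 (all genes −0.0059), 8 of 9 were above 0 at 20 with a median of 0.069 (all genes 0.0027), and 7 of 9 were below 0 at 40 with a median of −0.124 (all genes −0.0050). These 3 differences do not share a direction. For time point 20 against 0, the median was 0.130 with etoposide (8 of 9 above 0, all genes −0.0033) and −0.061 with DMSO (8 of 9 below 0, all genes −0.0041). Of all genes tested, 49.0% were above 0 with etoposide and 48.9% with DMSO. These values share the libraries of time points 0 and 20 with the comparisons of etoposide against DMSO there. With scaling to ribosomal protein genes the median of all genes moved to 0.123 for etoposide against DMSO at time point 0, and the subunit median there to 0.007, with 5 of 9 above 0. For 20 against 0 with etoposide, that scaling gave −0.107 for all genes and 0.03 for the subunits, with 6 of 9 above 0. With DMSO it gave −0.026 for all genes and −0.079 for the subunits, with 1 of 9 above 0. Members share libraries and are not replicates of a condition, so no test was made on these counts.

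The count of 0 called members is to be read against how few genes were called at all. The share of genes called was 0% for etoposide against DMSO at each of the 3 time points and for their mean, with 378, 108, 139 and 251 genes at an unadjusted p under 0.05 (edgeR). DESeq2 called 3, 0, 1 and 1 genes there, and limma-voom 0 in all. It was also 0% for 20 against 0 in both arms and for the difference between the arms in the change at 40, with 142 (etoposide), 199 (DMSO) and 190 (difference) genes at an unadjusted p under 0.05 and 0 called by DESeq2 or limma-voom. For 40 against 0 it was 0.204% with etoposide, 0.423% with DMSO and 0.916% over both arms, all of them lower at 40. With the replicate block the shares were 0.00705% for etoposide against DMSO at 40 and 0.0282% for the mean over time points, and 1.01%, 1.22% and 2.32% for 40 against 0 with etoposide, with DMSO and over both arms. They were 0% in the remaining comparisons, and the count of members stayed at 0. At such shares, a count of 0 among 9 genes does not set the subunits apart from genes in general.

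Lists of TFIIH partners were looked at in the comparison of 40 against 0 over both arms, in which 0.916% of all genes tested were called. At that share a count of 0 does not set lists of this size apart from genes in general. Over both arms at 40 against 0, the listed factors of nucleotide excision repair (17 of 17 tested) had 0 called and a median of 0.010, the subunits of RNA polymerase II (11 of 12 tested) had 0 called and a median of 0.012, and the other kinases and cyclins of transcription (9 of 9) had 0 called and a median of 0.000. The genes that deliver iron-sulphur clusters, which XPD carries, had 0 of 7 called and a median of 0.010. Of 22 other factors of the preinitiation complex, 0 were called, with a median of −0.020. With the replicate block 1 of the 22 was called lower, TAF5, a scaffold subunit of TFIID, at −0.61 (SE 0.14, edgeR adjusted p = 0.0175). That fit called 2.32% of all genes tested. In the same fit the number of short-lived mRNAs called was 13 of 15, against 10 without the block, and in the single arms 10 with etoposide and 13 with DMSO, against 6 and 7 without it.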

How the data were processed

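RNA of 18 libraries of hTERT RPE-1 cells was made into TruSeq Stranded mRNA libraries, per the labels' protocols. The authors deposited whole-number counts of reads per gene, not normalized. Per the submitters' processing notes they used bcl2fastq, HISAT2 and featureCounts with GRCh38 (hg38). Versions, annotation and strand setting: not given in the sources used here. Of 58051 identifiers, 57447 matched GENCODE 29, the source of positions, lengths and sequences.

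Counts were tested with edgeR 4.0.16 (R 4.3.3, quasi-likelihood, robust, TMM 0.978 to 1.02, 1 model of the 6 groups) after filterByExpr (14186 genes left, with 99.84% of all counts), with Benjamini-Hochberg adjustment and a threshold of 0.05. The script was tested on simulated data. The 10 comparisons set etoposide against DMSO (per time point and as a mean), time points 20 and 40 against 0 (each arm), 40 against 0 over both arms, and the arms' changes at 40 against each other. DESeq2 1.42.0, limma 3.58.1 (voom), other filters and scalings, the compared groups alone, left-out libraries and a replicate block were alternatives. Standard errors come from the F statistic, and intervals are 95% intervals.

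Replicate numbers were taken to pair the samples: all 45 same-numbered pairs of libraries deviated together from their group means (r 0.359 to 0.911, minimum set at 0.1), and each of the 18 libraries correlated best with its own number. The fit without the block is reported, with block values beside counts of calls, beside the intervals a limit rests on and beside some differences of single members.

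All members were named, with fitted values for some comparisons only, and of other lists at most 2 called genes per comparison (3 of the short-lived list). ATF3 and FOSB of the short-lived list were named without being called, and IER3 without being called in the fit without the block. The members and lists were chosen with earlier results of these data known.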

Additional observations from a re-analysis of the deposited data

Results flagged for a closer look

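The tested members were scanned for differences that went opposite ways in all 3 replicate numbers, between the arms or between time points. The share of all genes with such a pattern is not given here. For GTF2H2 (p44), time point 20 was higher than 0 with etoposide in all 3 replicate numbers and lower with DMSO in all 3. The mean difference of log2 CPM (prior count of 2) within replicate numbers was 0.32 with etoposide and −0.32 with DMSO. Tested as an interaction, a test added after seeing the data, the difference between the arms was 0.71 on the log2 scale (SE 0.45, edgeR unadjusted p = 0.131, adjusted p = 1). With the replicate block it was 0.68 (SE 0.33, unadjusted p = 0.0492, adjusted p = 1). The gene had 27 to 63 counts per library and shares most of its coding sequence with 2 copies.

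For GTF2H3 (p34) the same pattern had mean differences of 0.15 with etoposide and −0.06 with DMSO. The DMSO side rests on replicate 3, since replicates 1 and 2 differed by 0.01 or less on the log2 scale, and with library size scaling replicate 1 was higher at 20 (53.7 CPM) than at 0 (53.2 CPM). The interaction was 0.21 (SE 0.21, edgeR unadjusted p = 0.322, adjusted p = 1). With the replicate block it was 0.22 (SE 0.16, unadjusted p = 0.193, adjusted p = 1).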

How the results depend on the processing

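The count of called members was 0 in each of the 10 comparisons under all 29 alternatives, including those that left out 1 library (0 to 0). With the replicate block it was also 0, and the block changed no call of a member. Of 2610 values of single members under alternatives, 247 changed sign, none of them called in either fit, and beyond CDK7 their log2 changes were at most 0.25 in size. The count of all genes called at 40 against 0 over both arms was 130, and 329 with the replicate block, 210 by DESeq2, 79 with ribosomal protein gene scaling, and 16 and 30 without replicate 1 and without replicate 2. For etoposide it was 29, and 143 with the block, 68 by DESeq2, 18 with ribosomal protein gene scaling, 6 with the compared groups alone, and 0 and 5 without replicate 1 and without replicate 2. For DMSO it was 60, and 173, 108, 33, 12, 2 and 8 in the same order. Of the single libraries left out, replicate 1 of etoposide at 0 and replicates 1, 2 and 3 at 40 gave 13, 12, 12 and 17 for etoposide. Replicates 1 and 2 of DMSO at 0 gave 34 and 35 for DMSO, and those at 40 gave 27 and 31. No library moved the count over both arms by over 1.5 times (97 to 149). With ribosomal protein gene scaling the median log2 difference of all genes moved most in 3 comparisons, to 0.123 for etoposide against DMSO at time point 0, to −0.107 for 20 against 0 with etoposide (subunit median 0.030, 6 of 9 above 0), and to −0.105 for the difference between the arms in the change at 40 (subunit median −0.104). Over both arms, the subunit median at 40 against 0 was then −0.018, with 3 of 9 above 0.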
